A study of Mus musculus with 2 samples.

Results

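Inflammasomes are protein platforms that assemble in the cytosol when a sensor meets a microbial product or a sign of cell damage. The sensor recruits caspase-1, directly or through the adaptor ASC, and the active caspase cuts pro-IL-1β, pro-IL-18 and gasdermin D. The freed end of gasdermin D inserts into the plasma membrane as a pore, and the lytic death that follows is called pyroptosis. In macrophages, lipopolysaccharide first primes the system through Toll-like receptor 4, while caspase-11, encoded by Casp4, binds the lipid A part of lipopolysaccharide in the cytosol and cuts gasdermin D itself.

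The genes followed here were chosen by symbol for their part in this system, and number 10: the sensors Nlrp3, Nlrp1b, Naip2 and Naip5, the NAIP partner Nlrc4, the adaptor Pycard, the proteases Casp1, Casp4 and Casp8, and the pore protein Gsdmd. They are 10 of the 55536 annotated genes in the gene-level tables, and all belong to the 22028 protein-coding genes. The libraries hold ribosomal RNA-depleted total RNA from the nucleoplasmic fraction of primary bone marrow-derived macrophages of strain C57BL/6J, so levels include unfinished and nuclear-held RNA and leave out RNA of the cytoplasm. All cells had received Lipid A at 100 ng/ml for 12 h, had then been washed and kept without it for 12 h, and were collected at 0 min of a renewed exposure. Sex and age were not collected, per the labels. The labels give biological replicates 1 and 2 of this 1 group, both under 1 donor record, with 1000 ng of starting RNA in replicate 1 and 500 ng in replicate 2. Whether they came from separate animals or cultures is not stated, so the spread between them may be technical. No untreated or restimulated group was analysed here. Every value below is therefore a level in pretreated, washed cells, and whether a gene was raised or lowered by Lipid A cannot be read from it.

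Replicate 1 had 22907877 expected counts over annotated genes, and replicate 2 had 18612405. All 8 macrophage markers stood above 10 TPM in both libraries, where TPM is the deposited transcript abundance, a level corrected for gene length and depth. All 22 markers of neutrophils, dendritic, T, NK, B, stromal and epithelial cells stayed under 1 TPM in both, 7 of them without a count. The summed TPM of any of these lists ranged from 0 to 1.15. In the second quantification, described below, the neutrophil marker Cxcr2, without a count here, stood at 0.863 TPM in replicate 1 and 1.87 in replicate 2. In a bulk library, fewer cells that express a gene and less RNA of it per cell cannot be told apart.

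All 10 genes reached 1 TPM in both libraries, against 44.4% of protein-coding genes. A level of 10 TPM in both libraries was reached by 9 of the 10, all but Nlrc4, against 19.7% of protein-coding genes. The median over the 10 genes of log2(TPM + 0.1) was 4.53 ± 0.01 (SD, n = 2), while the same median was −0.91 ± 0.05 over all protein-coding genes and 3.22 ± 0.03 over those with at least 1 TPM in both libraries. Gsdmd led the order of mean TPM, followed by Casp4, Casp1, Casp8, Nlrp1b, Nlrp3, Naip5, Naip2, Pycard and Nlrc4. By gene-level TPM, the executioner and its proteases thus stood above the sensors and the adaptor among these 10 genes. For Gsdmd and Casp4 this total includes short transcripts that keep an intron, described below. The coding transcript Casp4-201 alone, at 16.5 and 15.7 TPM, was below Nlrp3, at 20.9 and 21.5 TPM. TPM is corrected for length, and by expected counts the order differed. Naip5 had 3344 and 2322 counts in replicates 1 and 2, against 3228 and 1883 for Gsdmd. Casp1, with 1371 and 1365 counts, and Casp4, with 1247 and 1299, were below Nlrp1b, Nlrp3, Naip5 and Naip2 in each library. Of the 9 neighbouring pairs in the order of mean TPM, 3 overlapped between libraries, and the other 6 were separated in both libraries. The 3 were Casp1 with Casp8, Nlrp3 with Naip5, and Naip2 with Pycard.

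**Figure D1:**
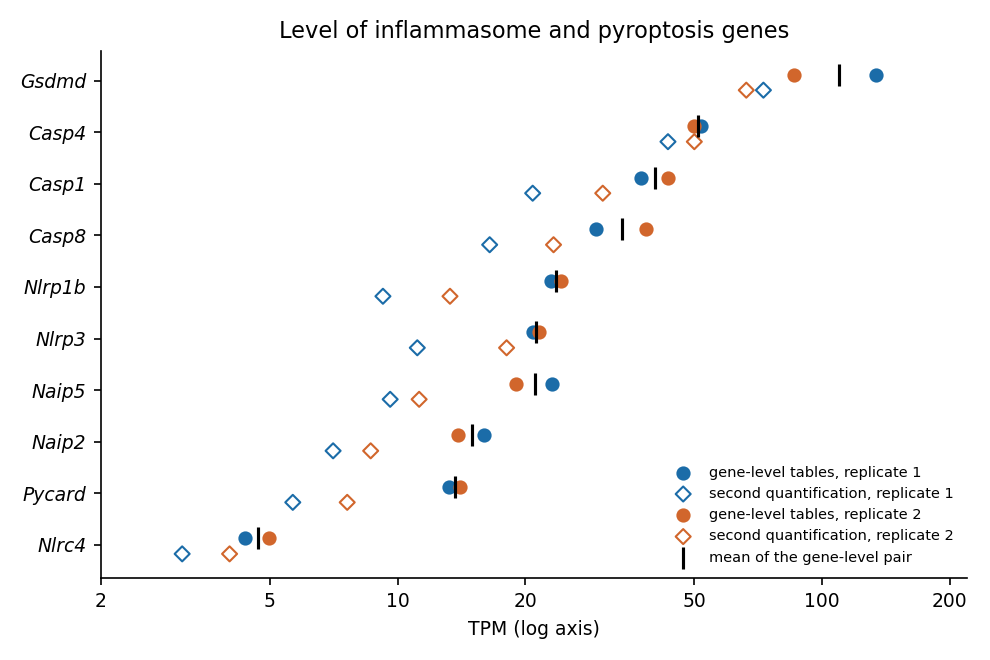
TPM on a log axis for each of the 10 genes. Filled circles are the gene-level tables and open diamonds the second quantification, blue for replicate 1 and orange for replicate 2, and the black bar is the mean of the gene-level pair. Levels run from 4.68 TPM for Nlrc4 to 109.9 TPM for Gsdmd, and the second quantification lies lower in both libraries for all genes but Casp4.

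Each library was also quantified by the authors a further time, straight from the reads, and this table is called the second quantification here. It rests on the same reads and is no replicate. It placed all 10 genes above 1 TPM, against 45.5% of protein-coding genes, and 5 of the 10 above 10 TPM in both libraries, against 14.1%. For 9 of the 10 genes its TPM was lower in both libraries. The median log2 ratio of the second over the gene-level TPM was −0.75 ± 0.21 (SD, n = 2) over the 10 genes and −0.56 ± 0.29 over all protein-coding genes, so most of the shift was common to the libraries as a whole.

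Among the sensors, Nlrp3 answers potassium efflux and many kinds of membrane damage and is the sensor best known for needing a priming signal. Nlrp3 (ENSMUSG00000032691.14, chr11:59541568-59566956, + strand, mm10) had 2263 expected counts and 20.9 TPM in replicate 1 and 1692 expected counts and 21.5 TPM in replicate 2. Its TPM was nearly the same in both libraries, at 21.2 ± 0.47 (SD, n = 2). This level was above that of 88.7% of protein-coding genes in replicate 1 and 89.6% in replicate 2. The second quantification gave 11.1 and 18.1 TPM, a wider spread.

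Nlrp1b senses the cleavage of its own N-terminal part by microbial proteases, such as anthrax lethal factor, and is restrained by the peptidases DPP8 and DPP9. The allele of C57BL/6 mice is known not to respond to that toxin. Nlrp1b (ENSMUSG00000070390.12, chr11:71153102-71230733, − strand) had 2618 counts and 23.1 TPM in replicate 1 and 2324 counts and 24.3 TPM in replicate 2. Its mean of 23.7 ± 0.88 TPM was the highest of the 4 sensors, above Nlrp3 in each library and above Naip5 in replicate 2 only. In the second quantification Nlrp1b stood at 9.24 and 13.3 TPM, below Nlrp3 in each library and above Naip5 in replicate 2 only, so the order of Nlrp1b and Nlrp3 changed with the method.

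NAIP proteins bind bacterial ligands, flagellin in the case of NAIP5 and the rod protein of type III secretion systems in the case of NAIP2, and then recruit NLRC4. Naip5 (ENSMUSG00000071203.6, chr13:100211739-100246323, − strand) had 3344 counts and 23.2 TPM in replicate 1 and 2322 counts and 19.0 TPM in replicate 2. Naip2 (ENSMUSG00000078945.10, chr13:100144063-100202092, − strand) had 2081 counts and 16.0 TPM in replicate 1 and 1533 counts and 13.9 TPM in replicate 2. Both receptors were lower in replicate 2, and Naip5 lay above Naip2 in each library. Naip6, another flagellin receptor of the same cluster, stood at 24.5 and 24.7 TPM, above Naip5 in both libraries. The fourth gene of the cluster, Naip1, had 33.8 and 36.8 counts and 0.23 and 0.29 TPM, and the pseudogene Naip3 had 17.6 and 16.2 counts.

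The NAIP genes are near copies, so the split of reads among them was checked on the sequences. Of the distinct 31-base words in Naip5 transcripts, 53.1% also occur in another gene, 36.7% in Naip6, and for words of 100 bases the share with another gene is 16.2%. For Naip2 these shares are 32.8% with 31 bases, led by Naip1 at 21.1%, and 4.44% with 100 bases. Over aligned coding bases of GENCODE transcripts, Naip5 and Naip6 were 97.0% identical and Naip2 and Naip5 89.99% identical. The longest run without a difference between Naip5 and Naip6 was 229 bases, and it is printed with its flanks beside the same stretch in Naip2. It was picked for its likeness between Naip5 and Naip6 and does not stand for the whole genes. The lines give coding bases 2318 to 2586 of Naip5 (chr13:100222141-100222409, − strand), the aligned bases 2318 to 2586 of Naip6 (chr13:100299428-100299696, − strand) and 2447 to 2715 of Naip2 (chr13:100160812-100161080, − strand), all in mm10, and capitals mark bases that differ from Naip5.
Naip5: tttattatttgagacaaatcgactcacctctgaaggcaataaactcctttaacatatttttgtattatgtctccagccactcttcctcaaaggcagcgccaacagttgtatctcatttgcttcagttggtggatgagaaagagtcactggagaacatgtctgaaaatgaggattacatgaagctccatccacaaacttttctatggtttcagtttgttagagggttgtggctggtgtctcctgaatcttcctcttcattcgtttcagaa
Naip6: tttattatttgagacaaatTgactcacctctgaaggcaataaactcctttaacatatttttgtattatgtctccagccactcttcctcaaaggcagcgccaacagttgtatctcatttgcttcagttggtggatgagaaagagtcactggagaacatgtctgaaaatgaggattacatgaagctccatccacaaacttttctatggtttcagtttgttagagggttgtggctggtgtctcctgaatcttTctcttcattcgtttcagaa
Naip2: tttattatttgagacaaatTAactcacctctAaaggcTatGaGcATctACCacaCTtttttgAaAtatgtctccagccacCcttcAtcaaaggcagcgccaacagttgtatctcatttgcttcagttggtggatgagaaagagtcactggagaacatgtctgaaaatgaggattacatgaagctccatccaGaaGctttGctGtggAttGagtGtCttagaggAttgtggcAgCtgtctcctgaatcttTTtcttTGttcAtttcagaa
Within these 269 bases Naip6 differs from Naip5 at 2 positions and Naip2 at 33. The deposited posterior standard deviation, the uncertainty that the authors' quantification assigned to a count, was 3.08 and 2.88 counts for Naip5 and 1.11 and 0.54 for Naip2, small beside counts of 1533 or more. The second quantification kept Naip5, at 9.61 and 11.2 TPM, above Naip2, at 7.05 and 8.64 TPM, and put Naip6 at 9.96 and 13.3 TPM.

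Nlrc4 encodes the partner that NAIP proteins recruit, which carries a caspase recruitment domain and can engage caspase-1 with or without ASC. Nlrc4 (ENSMUSG00000039193.9, chr17:74425438-74459142, − strand) had 505 counts and 4.37 TPM in replicate 1 and 443 counts and 4.99 TPM in replicate 2. With a mean of 4.68 ± 0.44 TPM it was the lowest of the 10 genes in each library, below the NAIP receptors that depend on it. The second quantification gave 3.11 and 4.02 TPM, again the lowest.

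Pycard encodes ASC, the adaptor that joins a pyrin domain to a caspase recruitment domain and polymerises into the ASC speck. Pycard (ENSMUSG00000030793.4, chr7:127989708-127993867, − strand) had 1371 counts and 13.2 TPM in replicate 1 and 1233 counts and 14.04 TPM in replicate 2. The libraries were close, with a mean of 13.6 ± 0.57 TPM, and only Nlrc4 was lower in both. This level depends on the gene model used. The main transcript, Pycard-201, is 3800 bases long with 579 coding bases, and its last exon alone spans 3258 bases (chr7:127989708-127992965). RefSeq ends the gene 1665 bases earlier. Casp1, with 1371 counts in replicate 1 as well, is modelled by 1 transcript of 1497 bases and was therefore listed at 37.4 TPM. An unclassified gene on the opposite strand, Gm45205, overlaps the first exon (chr7:127993383-127993867) and held 22.3 and 18.5 counts, so that without strand information some reads cannot be assigned to either.

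Casp1 encodes caspase-1, the shared effector of the canonical inflammasomes, which cuts IL-1β, IL-18 and gasdermin D. Casp1 (ENSMUSG00000025888.5, chr9:5298517-5307265, + strand) had 1371 counts and 37.4 TPM in replicate 1 and 1365 counts and 43.4 TPM in replicate 2. No 31-base word of its transcript occurs in another gene, and the second quantification gave 20.8 and 30.4 TPM. In TPM, Casp1 exceeded all 5 sensor-side genes and Pycard in both libraries and both quantifications. By expected counts it was below Nlrp1b, Nlrp3, Naip5 and Naip2 in each library.

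Casp4, the mouse gene for caspase-11, lies next to Casp1 on the same strand. Casp4 (ENSMUSG00000033538.13, chr9:5308828-5336783, + strand) had 1247 counts and 51.9 TPM in replicate 1 and 1299 counts and 49.99 TPM in replicate 2. Its TPM in the second quantification was 43.4 and 50.04, lower in replicate 1 and not in replicate 2. Casp4 stood above Casp1 in TPM in every library and quantification. By expected counts it was below Casp1, which had 1371 and 1365. The coding transcript Casp4-201 alone, at 16.5 and 15.7 TPM, was also below Casp1, at 37.4 and 43.4 TPM. The coding bases of these neighbours were 60.6% identical, with no identical run longer than 12 bases.

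Casp8 encodes caspase-8, which starts apoptosis downstream of death receptors, holds back necroptosis and can cut gasdermin D or IL-1β when other routes are blocked. Casp8 (ENSMUSG00000026029.14, chr1:58795374-58847503, + strand) had 1606 counts and 29.3 TPM in replicate 1 and 1722 counts and 38.5 TPM in replicate 2. Replicate 2 was higher, and the range overlapped that of Casp1. The second quantification gave 16.5 and 23.3 TPM, with the same library higher. A gene of unclassified type, Gm37760, lies within an intron of Casp8 on the same strand and held 980 and 684 counts of its own.

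Gsdmd encodes gasdermin D, the pore protein cut by caspase-1, caspase-11 and caspase-8. Gsdmd (ENSMUSG00000022575.5, chr15:75862327-75867408, + strand) had 3228 counts and 134 TPM in replicate 1 and 1883 counts and 85.8 TPM in replicate 2. Its mean of 109.9 ± 34.1 TPM was the highest of the 10 genes and also the most widely spread, yet the lower library still exceeded every value of Casp4. Gsdmd surpassed 98.9% and 98.4% of protein-coding genes in replicates 1 and 2. In the second quantification it stood at 72.8 and 66.3 TPM, the highest there too. These are totals over all its transcripts. The coding transcript Gsdmd-201 alone, at 53.3 and 34.45 TPM, was above Casp1 in replicate 1, at 37.4 TPM, and below it in replicate 2, at 43.4 TPM. The second quantification gave Gsdmd-201 24.3 and 22.4 TPM, against 20.8 and 30.4 for Casp1.

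The libraries were next compared gene by gene through the log2 ratio of counts of replicate 2 over replicate 1, scaled by TMM factors, which correct for depth and composition. With 1 library against another this is a description, and the intervals given are 95% Clopper-Pearson intervals that cover counting error only. No member was apart by a log2 ratio of 1 or more at a mean count of at least 100, against 2.01% of the 10198 genes tested, so a count of 0 in 10 is near that background. Gsdmd had the lowest ratio, −0.52 (−0.60 to −0.44), followed by Naip5 at −0.27 (−0.35 to −0.19), Naip2 at −0.19 (−0.28 to −0.09) and Nlrp3 at −0.16 (−0.26 to −0.07). All 4 intervals lay below 0. The share of all genes with an interval that excludes 0 was not counted, so the intervals here and below do not set members apart from other genes.

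On the other side, Casp8 had a ratio of 0.36 (0.26 to 0.46), Casp4 of 0.31 (0.20 to 0.43), Casp1 of 0.25 (0.14 to 0.36) and Nlrp1b of 0.08, just above 0 by its counting interval. By these counts the 3 caspases were each higher in replicate 2 and Gsdmd was lower, which describes 1 library against another and no pattern between the genes. For Pycard, at 0.10, and Nlrc4, at 0.07, the interval included 0. The sign was the same in the second quantification for 9 of the 10 genes, the exception being Nlrc4 at −0.11, and the caspase ratios shrank there to 0.06 for Casp8, 0.19 for Casp4 and 0.11 for Casp1. For Casp4 the count ratio was positive although its TPM was slightly lower in replicate 2. The reason lies in its effective length, 828 bases in replicate 1 and 1060 bases in replicate 2. This is the mean over its transcripts, weighted by use, of a length corrected to be shorter than the annotated one. The median absolute log2 ratio was 0.22 over the 10 genes and 0.23 over protein-coding genes past the expression filter. Beside these ratios, all 8 macrophage markers had a ratio under 0. Their median was −0.41, and Fcgr1 was apart at −1.04. The part of this shift, and of the starting amount, in the members' ratios was not tested.

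**Figure D2:**
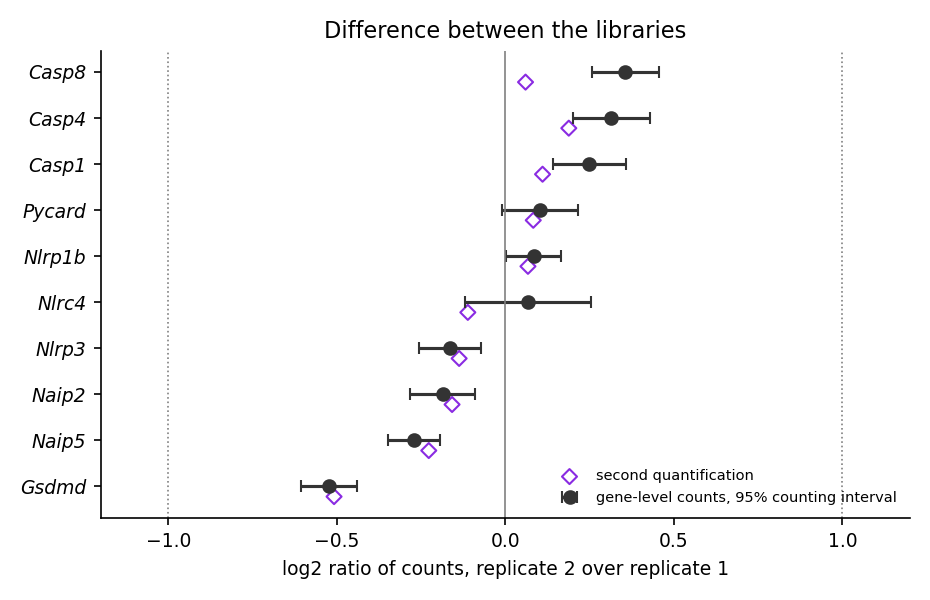
Log2 ratio of counts, replicate 2 over replicate 1, for each gene. Black points are the gene-level counts with 95% counting intervals, open diamonds the second quantification, and dotted lines mark a ratio of 1 in either direction. The 3 caspases lie to the right of 0 and Gsdmd, Naip5, Naip2 and Nlrp3 to the left, with none past a dotted line.

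Nuclear RNA holds transcripts that are not yet fully spliced, and the annotation lists some of these as transcripts with a retained intron. The 10 genes have 35 annotated transcripts, of which 28 had a mean TPM of at least 1, and 8 genes have several. The highest transcript was the same in both quantifications for 5 of these 8 genes and another for 3. Retained-intron transcripts are annotated for Gsdmd and Casp4 alone among the 10. In both genes such transcripts took more than 50% of the transcript TPM in both libraries, which held for 15.4% of the 6143 detected genes with such a transcript.

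For Gsdmd the retained-intron share was 55.7% of TPM in replicate 1 and 55.8% in replicate 2, against a median of 29.2% and 30.7% over detected genes with such transcripts. The fully spliced Gsdmd-201 held 53.3 and 34.4 TPM. Gsdmd-205, which runs from exon sequence 64 bases into an intron, held 43.3 and 14.2 TPM, Gsdmd-204 held 23.4 and 13.8, and Gsdmd-206 held 7.97 and 19.9. The summed share was alike in both libraries while its parts were not, with Gsdmd-205 and Gsdmd-204 lower in TPM and Gsdmd-206 higher in replicate 2. A short coding transcript, Gsdmd-203, held 5.92 and 3.0 TPM.

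The share depends on the unit, because the retained-intron models are short. Gsdmd-205 spans 406 bases, with an effective length of 174 bases in replicate 1, against 1792 bases for Gsdmd-201. Counted in reads, a scale chosen after the data were seen, retained-intron transcripts took 24.2% and 28.1% of the gene's counts, which exceeds the medians of 17.2% and 18.5% over detected genes. The second quantification gave 61.4% and 60.8% of TPM.

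The sequence that separates Gsdmd-205 from Gsdmd-201 is printed to show how few bases carry this call. Both lines start with the same 30 exon bases in lower case (from chr15:75863599-75863692, + strand, mm10). Capitals mark what follows, the 64 retained intron bases in Gsdmd-205 and the first 30 bases of the next exon in Gsdmd-201.
Gsdmd-205: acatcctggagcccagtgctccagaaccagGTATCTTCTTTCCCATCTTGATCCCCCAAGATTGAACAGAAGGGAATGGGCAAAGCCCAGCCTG
Gsdmd-201: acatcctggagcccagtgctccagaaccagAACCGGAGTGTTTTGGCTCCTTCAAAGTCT

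Casp4 showed the same division between units. Its retained-intron share was 60.8% of TPM in replicate 1 and 52.1% in replicate 2, and 39.0% and 37.6% of counts. The second quantification gave 71.3% and 65.1% of TPM. Casp4-201, which encodes the full caspase, held 16.5 and 15.7 TPM, and the retained-intron transcripts Casp4-205, Casp4-207 and Casp4-202 held 13.2 and 5.71, 11.9 and 10.9, and 6.38 and 9.44 TPM. Casp4-205 had 52 and 21.3 expected counts, but 218 and 144 estimated counts in the second quantification, where it was the leading Casp4 transcript with 42.9% and 28.4% of TPM. A further transcript, Casp4-204, annotated as a target of nonsense-mediated decay, the pathway that removes RNA with a premature stop, held 3.84 and 8.28 TPM.

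The boundary that defines Casp4-205 is shown for the same reason, with 30 exon bases in lower case followed in capitals by its 228 intron bases (chr9:5321483-5321740, + strand, mm10) or, in Casp4-201, by the first 30 bases of the next exon.
Casp4-205: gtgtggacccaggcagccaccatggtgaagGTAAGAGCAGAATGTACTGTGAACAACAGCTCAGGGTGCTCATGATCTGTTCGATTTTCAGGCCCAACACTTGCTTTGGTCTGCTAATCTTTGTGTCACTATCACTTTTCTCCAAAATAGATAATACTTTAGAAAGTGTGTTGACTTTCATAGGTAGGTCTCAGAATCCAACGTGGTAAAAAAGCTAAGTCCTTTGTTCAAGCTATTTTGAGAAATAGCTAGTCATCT
Casp4-201: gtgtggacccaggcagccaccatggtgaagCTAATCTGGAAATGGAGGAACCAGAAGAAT

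Transcripts annotated as targets of nonsense-mediated decay were prominent in Nlrp1b and Nlrc4 as well. Nlrp1b-205 held 11.3 and 14.2 TPM, 49.2% of the gene's transcript TPM in replicate 1 and 58.3% in replicate 2, and 66.9% and 65.8% in the second quantification. Over the 3050 detected genes with such transcripts the median share was 3.74% and 3.22%, and 2.36% of those genes passed 50% in both libraries. The Nlrp1b share ranked above that of 96.6% and 97.9% of those genes. The transcript of Nlrc4 in this class, Nlrc4-202, had 26.1% of TPM in replicate 1 and 55.3% in replicate 2, but 3.83% and 9.63% in the second quantification. No base of Nlrc4-202 is unique to it, and the quantifications put Nlrc4-201, the full coding transcript, at 2.98 and 2.23 TPM or 2.91 and 3.55 TPM.

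**Figure D3:**
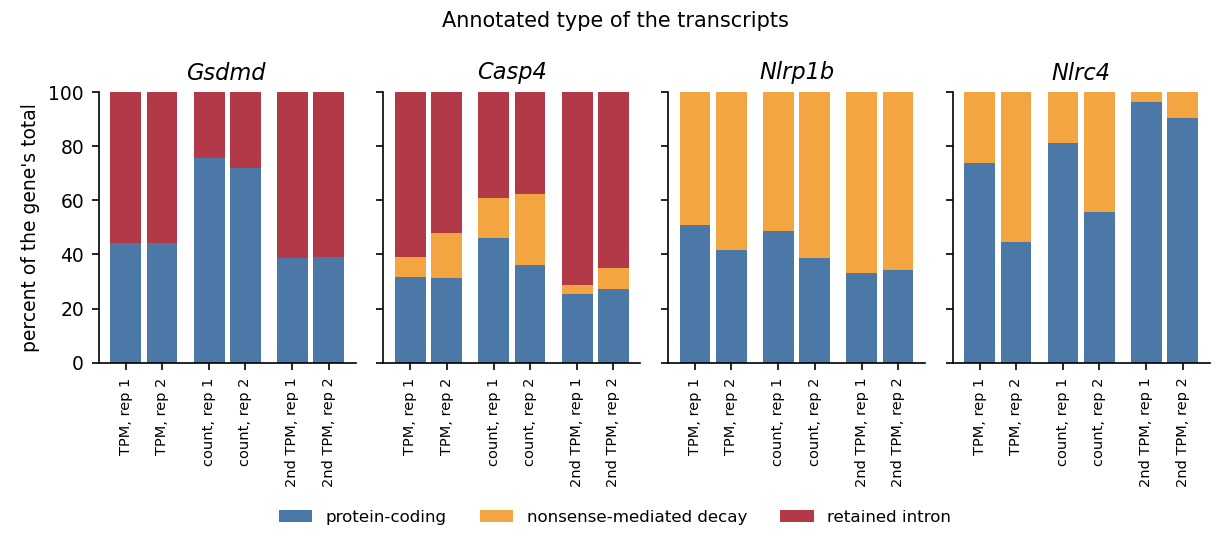
Percent of each gene's total by annotated transcript type, in stacked bars for replicates 1 and 2. The bars give the share of TPM, of expected counts and of TPM in the second quantification. Retained-intron transcripts of Gsdmd pass 50% by TPM but not by counts, the Nlrp1b decay share lies between 49.2% and 66.9% in all 6 bars, and the Nlrc4 decay share is 55.3% or 9.63% in replicate 2 depending on the quantification.

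Several of the genes can start at more than 1 first exon. For Nlrp1b, transcripts from the upstream start (Nlrp1b-204 and Nlrp1b-205) took 67.5% of TPM in replicate 1 and 58.3% in replicate 2, and those from the start used by Nlrp1b-202 and Nlrp1b-203 took 32.4% and 33.1%. The remaining start, that of Nlrp1b-201, took 0.043% and 8.64%. By the second quantification the shares were 67.0% and 66.4% for the upstream start, 33.0% and 32.6% for that of Nlrp1b-203, and 0 and 1.04% for that of Nlrp1b-201, so the methods differed mainly in replicate 2. The upstream start and that of Nlrp1b-203 each lead into their own copy of a long exon, of 1666 bases (chr11:71216857-71218522) in Nlrp1b-205 and 1675 bases (chr11:71181190-71182864) in Nlrp1b-203, and the copies were 84.5% identical. Some transcripts differed widely between libraries. Nlrp1b-204 had 479 counts in replicate 1 and 0.25 in replicate 2, with posterior standard deviations of 139 and 79.1 counts, and has no base of its own. Nlrp1b-201 had 1.23 and 170 counts, again with no base of its own, while Nlrp1b-202 held 2.98 and 2.91 TPM and Nlrp1b-203 held 4.49 and 5.13 TPM.

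The 250 bases before each of the Nlrp1b starts, from the RefSeq promoter table (GRCm38.p6), are printed because both starts carried reads. The upstream start has 1 match to the letters GAGGAAGT, a site bound by the myeloid factor PU.1, shown in capitals, and the other start has none. The regions are chr11:71230734-71230983 and chr11:71201457-71201706, read on the − strand.
Nlrp1b-204 promoter: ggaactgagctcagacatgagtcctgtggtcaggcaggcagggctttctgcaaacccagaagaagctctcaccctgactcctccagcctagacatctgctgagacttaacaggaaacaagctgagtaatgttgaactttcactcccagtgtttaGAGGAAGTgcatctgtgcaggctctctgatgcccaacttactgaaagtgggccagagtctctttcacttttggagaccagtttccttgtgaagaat
Nlrp1b-203 promoter: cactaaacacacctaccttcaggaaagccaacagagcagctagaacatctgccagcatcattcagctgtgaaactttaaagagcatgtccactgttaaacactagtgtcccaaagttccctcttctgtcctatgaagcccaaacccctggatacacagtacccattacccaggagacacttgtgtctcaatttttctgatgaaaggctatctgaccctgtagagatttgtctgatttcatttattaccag

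Both strands of 12 promoter entries covering 9 of the 10 genes were searched, each over the 250 bases before the start. The letters searched were TATAAA for the TATA box, GAAA, 2 free bases and GAAA for the interferon-stimulated response element, GGG, 2 free bases and TTTCC for NF-kappaB, TGANTCA for AP-1 and GAGGAAGT for PU.1, and no motif contains another. Among all 32851 entries they were found in 12.4%, 2.98%, 1.41%, 6.75% and 2.44%. Of the 10 genes' entries, those of Pycard and of the upstream Nlrp1b start held 1 PU.1 match each, that of Naip5 held 1 TATA match, and both overlapping entries of Casp4 held 2 NF-kappaB matches. Nlrp3, Casp1, Casp8, Naip2 and Nlrc4 had no match to these letters in the window. The only Naip2 entry lies near the start of Naip2-202, and the only Casp8 entry at that of Casp8-202. The starts of Naip2-201 and Casp8-201 were therefore not searched. The Naip5 entry starts 1013 bases from the start of the GENCODE transcript. The promoter of Casp4-201 (chr9:5308599-5308848, + strand) is printed for its pair of NF-kappaB matches, in capitals, the second of which reads on the other strand. A match is a description of letters and not evidence of binding.
Casp4-201 promoter: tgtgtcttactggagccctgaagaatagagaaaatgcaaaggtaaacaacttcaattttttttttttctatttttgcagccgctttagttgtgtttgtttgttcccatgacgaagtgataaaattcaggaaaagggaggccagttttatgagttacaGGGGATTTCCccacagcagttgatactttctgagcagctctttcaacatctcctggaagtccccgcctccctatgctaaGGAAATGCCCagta

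Nlrp3 has a start for Nlrp3-201 and, downstream of it, a start shared by Nlrp3-202 and Nlrp3-203. The first took 58.9% of TPM in replicate 1 and 45.9% in replicate 2, but 24.6% and 18.6% in the second quantification. Only 36 bases belong to the first start alone, and the posterior standard deviation of the Nlrp3-201 count was 148 and 143 on counts of 1320 and 901. Nlrp3-202 held 8.57 and 8.04 TPM. The short Nlrp3-203 was listed at 0 in replicate 1 and 3.6 TPM in replicate 2, and at 3.19 and 8.77 TPM in the second quantification. The count of Nlrp3 as a gene, with a posterior standard deviation of 0 in both libraries, was better determined than its split by start. Its TPM rests on that split through the effective length, 3735 bases in replicate 1 and 3206 in replicate 2.

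Naip2 differed most between the quantifications. The start of Naip2-201, with 23 bases of its own, took 91.8% and 75.4% of TPM in the gene-level pipeline and 18.9% and 15.6% in the second quantification. Naip2-202, the other main transcript, held 1.06 and 2.62 TPM by the first and 5.49 and 7.04 TPM by the second, so the leading transcript of Naip2 changed with the method. For Casp8 the downstream start of Casp8-202 and Casp8-203 led in both, with 65.7% and 80.9% of TPM, or 52.2% and 73.7% in the second quantification. Casp8-202 held 17.5 and 30.5 TPM and Casp8-203 held 1.76 and 0.66, while Casp8-201, from the upstream start, held 9.84 and 7.37 TPM. The higher level of Casp8 in replicate 2 lay in Casp8-202. Casp1 and Naip5 have 1 annotated transcript each, and all expected counts of Pycard went to Pycard-201, while the second quantification gave Pycard-202 7.84% of TPM in replicate 1 and none in replicate 2.

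**Figure D4:**
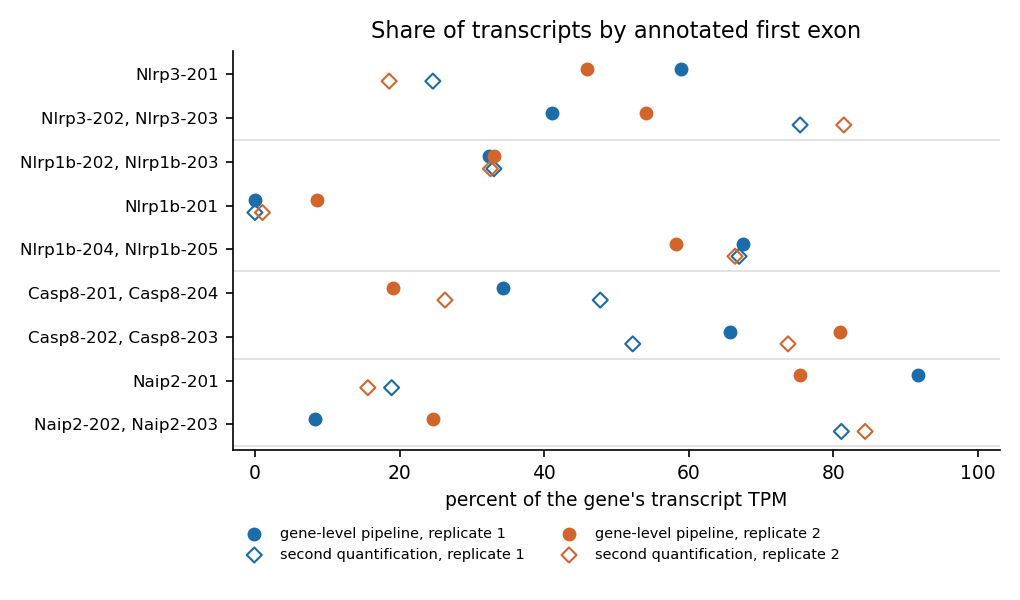
Percent of transcript TPM by annotated first exon for Nlrp3, Nlrp1b, Casp8 and Naip2. Filled circles are the gene-level pipeline and open diamonds the second quantification, blue for replicate 1 and orange for replicate 2. The start of Nlrp1b-202 and Nlrp1b-203 keeps a share between 32.4% and 33.1% by both methods, the upstream start of Nlrp1b lies between 58.3% and 67.5%, and the starts of Nlrp3 and Naip2 change places in at least 1 library.

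The wider pathway was described through 50 further genes in 6 lists chosen for function. Of these, 36 reached 1 TPM and 21 reached 10 TPM in both libraries, against 44.4% and 19.7% of protein-coding genes, and 8 had no count in either. None of the 38 that passed the expression filter was apart between libraries by gene-level counts. This is near the share of 2.01% over the 10198 genes tested. Among other sensors 6 of 11 reached 1 TPM, and 5 by the second quantification. Aim2, which binds cytosolic DNA, stood at 86.0 and 65.7 TPM, above every sensor among the 10 genes in both libraries. Nod1, a receptor for bacterial peptidoglycan, stood at 52.4 and 28.6 TPM, with a log2 ratio of −0.997, just short of the limit for apart, and of −1.01, past it, in the second quantification. Nlrp9b was without a count, and 3 counts, the limit that a count of 0 allows, would be 0.079 TPM in replicate 1 and 0.092 in replicate 2, in counting error only. The second quantification listed Nlrp9b at 0.342 TPM in replicate 1 and at 0 in replicate 2, so this limit holds for the gene-level counts alone.

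All 3 cytokine genes that inflammasomes act on or release were present. Il18 stood at 25.7 and 17.5 TPM, Il1a at 8.49 and 10.1 TPM and Il1b at 7.16 and 6.36 TPM. Il1b, whose product is the best-known caspase-1 substrate, was thus below Casp1 and below Il18 in each library. Of 9 genes of other gasdermins and membrane rupture, only Ninj1, which ruptures the plasma membrane after pore formation, at 46.4 and 38.0 TPM, and Gsdme, another pore-forming gasdermin, at 3.32 and 4.31 TPM, reached 1 TPM. Gsdmc4 had 3 counts in replicate 1 and 0 in replicate 2, and the other 6, Gsdmc3 among them, had none. Gsdma2, named after its values were seen, had no count in the gene-level tables but 3.64 and 4.79 TPM in the second quantification, and Gsdma, named likewise, had none but 1.23 and 1.01 TPM there. By the second quantification 4 of the 9 genes reached 1 TPM, so the absence of these 2 depends on the method. Gsdmd was therefore the gasdermin with the highest level in each library by both quantifications.

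Of 12 upstream and accessory genes 11 reached 1 TPM and 8 reached 10 TPM. The guanylate-binding proteins, which act on pathogen vacuoles and promote the response of caspase-11 to lipopolysaccharide, led this list. Gbp2 stood at 141.9 and 90.6 TPM and Gbp5 at 73.5 and 48.3 TPM. Pstpip1, a binding partner of pyrin, stood at 51.1 and 41.4 TPM, and Serpinb1a, an inhibitor of neutrophil proteases, had 2 counts and 0. Gbp2, like Gsdmd, was lower in replicate 2 by its log2 ratio of −0.62.

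All 10 genes that act with caspase-8 reached 1 TPM, 8 of them 10 TPM. By the second quantification 9 of the 10 reached 1 TPM in both libraries, and Fadd stood at 0.856 and 1.34 TPM. Cflar, the catalytically inactive partner that restrains caspase-8, stood at 197 and 172 TPM, above Casp8 and above each of the 10 genes in both libraries. Zbp1, a sensor of Z-form nucleic acids, stood at 141.2 and 109.3 TPM, Birc3, a ubiquitin ligase that limits cell death, at 63.2 and 51.1 TPM, and Fadd, the adaptor that brings caspase-8 to its receptors, at 2.05 and 2.49 TPM. Fadd had the lowest mean TPM of its list. Of 5 other caspases 4 reached 1 TPM, and 3 by the second quantification. Casp9, the initiator caspase of the mitochondrial route of apoptosis, was listed at 9.34 and 9.01 TPM, Casp2 at 4.52 and 5.74 and Casp6 at 2.06 and 2.1, and Casp14, a skin caspase, had no count. The inflammatory caspases Casp1 and Casp4 and caspase-8 exceeded each of these 5 in both libraries.

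**Figure D5:**
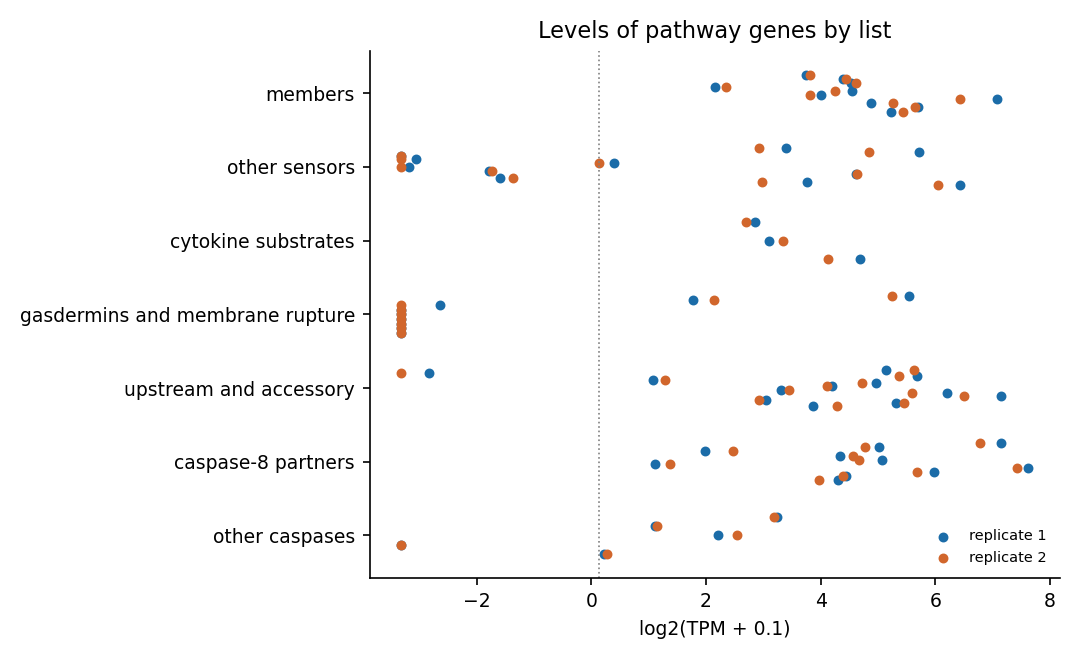
Levels as log2(TPM + 0.1) for the 10 genes ("members") and 6 lists of other pathway genes, with 1 point per gene and library, blue for replicate 1 and orange for replicate 2. Values are those of the gene-level tables, and the dotted line marks 1 TPM. All points of the 10 genes and of the caspase-8 partners lie to the right of the line, while 6 gasdermin genes sit at the left edge with no count.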

How the data were processed

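Per the labels, the libraries hold rRNA-depleted RNA of a nucleoplasmic fraction. Per the notes deposited beside the files, the authors derived expected counts and TPM per gene and transcript from transcriptome alignments, and estimated counts and TPM of the second quantification from the reads, on mm10 with GENCODE M21. The deposited tables also give, as other columns, effective lengths and posterior standard deviations of counts. The programs and their use of strand, not given in the sources used here, could shift values of overlapping genes and near copies. Entries that name no annotated gene, 26345 per library with 1.01% and 0.336% of counts, were left out. Estimated counts of the second quantification summed to 30419009 and 32279044.

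Expected counts were rounded, and log2 ratios used edgeR 4.0.16 TMM factors over genes past filterByExpr and a prior count of 0.5. The script was tested on simulated data. Positions and transcript types came from GENCODE, promoters from RefSeq. Shared words, coding identity (in place of protein identity, whose table was not used here), start groups and motifs were added after the data were seen. The members and lists were chosen with earlier results of these data known. Named were all members, their transcripts with a mean TPM of at least 1, and the 3 highest and the lowest gene of each list. Naip1, Naip3, Fcgr1, Cxcr2, Gsdma, Gsdma2, Gm37760 and Gm45205 were named after their values were seen. Some genes of the lists are not reported here. With 1 group of 2 libraries no p-value was computed. Alternatives were the second quantification, each library alone, TPM rescaled over protein-coding genes, other thresholds and pseudocounts, and other scalings including DESeq2 1.42.0.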

Additional observations from a re-analysis of the deposited data

How the results depend on the processing

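The count of genes at 1 TPM stayed at 10 of 10 under all alternatives run, and that at 10 TPM was 9 with either library alone, 10 with TPM rescaled over protein-coding genes and 5 in the second quantification. The median log2 level of 4.53 became 3.67 in the second quantification, 6.34 with rescaling and 4.58 with a pseudocount of 1, and ranged from 4.52 to 4.54 with 1 library left out. None of the 10 genes was apart under any scaling, threshold or quantification run. The retained-intron share, a mean of 55.7% of TPM for Gsdmd and 56.5% for Casp4, was 61.1% and 68.2% in the second quantification and 26.2% and 38.3% of expected counts, an alternative chosen after the data were seen, whose transcripts are not divided by their length. It ranged from 55.7% to 55.8% for Gsdmd and from 52.1% to 60.8% for Casp4 with 1 library left out. The levels of all 10 genes moved by more than their SD in the second quantification, and the cause was not tested. No paired analysis was possible because both libraries belong to 1 group. Shares of transcripts with few bases of their own, as in Nlrp3, Naip2, Nlrp1b-204 and Nlrc4-202, differed between the quantifications or the libraries, and the cause was not tested. Differences between libraries cannot be told apart from the starting amount.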
